A study of Carassius auratus with 5 samples.

Results

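Actin regulators and microtubule motors were followed in the forebrain of female goldfish after exposure to an aromatase inhibitor. The set took in every cDNA clone whose name in the scanner reports contained 1 of 15 words, from cofilin and capping protein to dynein, dynactin, kinesin and kinectin, and it came to 37 of the 8099 clones on the array. The 37 clones carried 20 gene names and came from 21 source plates. Profilin, gelsolin, destrin, fascin, plastin and coronin matched 0 clones.

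Telencephalon RNA was measured on 5 two-colour cDNA arrays. On each, RNA of 1 independent group of sexually mature female goldfish kept in water with fadrozole at 50 µg/L was labelled with Cy3, and RNA of 1 common pool of unexposed females was labelled with Cy5. Fadrozole blocks aromatase, the enzyme that turns androgens into estrogens and is abundant in the fish forebrain. The number of fish per group, their age and the length of exposure are not given in the sources used here. The same pool served all 5 arrays and therefore counts as 1 control sample: a ratio tested against 0 leaves out the spread among control fish. Every array had the same dye orientation, so that dye and treatment cannot be told apart. In tissue RNA, fewer cells of a type and less RNA per cell cannot be told apart either.

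Actin filaments grow and shrink at their ends. Cofilin cuts and disassembles filaments, beta thymosins hold actin monomers in reserve, capping protein (CapZ, a dimer of alpha and beta subunits) closes the fast-growing end, and the Arp2/3 complex starts new branches. Along microtubules, cytoplasmic dynein with its cofactor dynactin carries cargo toward the cell body of a neuron and kinesins carry it outward, while kinectin is a membrane protein that binds kinesin. In neurons these proteins shape growth cones, dendritic spines and axonal transport.

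All values below are log2 ratios of fadrozole over control, the mean of the 2 spots of a clone on an array, given for replicates 1 to 5 in that order and then as mean ± SD over the 5 arrays. A positive value means a higher signal in exposed fish. Limma's test called 2 of the 37 clones higher and 1 lower at a Benjamini-Hochberg adjusted p under 0.05. Over all 8078 tested clones the called shares were 0.421% higher (34 clones) and 1.61% lower (130 clones). Of these lower calls, 127 came from source plates 02 and 04, which held 1 of the 37 clones. The member called lower came from another plate, so the 1.61% is a poor yardstick for it. Its call still depended on those 2 plates being in the fit. Without them its ratio stayed at -0.44, its limma adjusted p was 0.178, and 0 clones were called. Without adjustment, 5 of the 37 were higher and 3 lower at p under 0.05, against background shares of 6.29% higher and 8.06% lower. The median of the 37 was 0.00, as was that of all tested clones, with 19 clones above 0 and 18 below. Over the 5 arrays the median ran from -0.03 to 0.11. However, 26 of the 37 clones did not exceed the empty spots, described below, in both channels on 3 arrays. The median of all 37 therefore does not settle whether the set had a common direction.

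**Figure D1:**
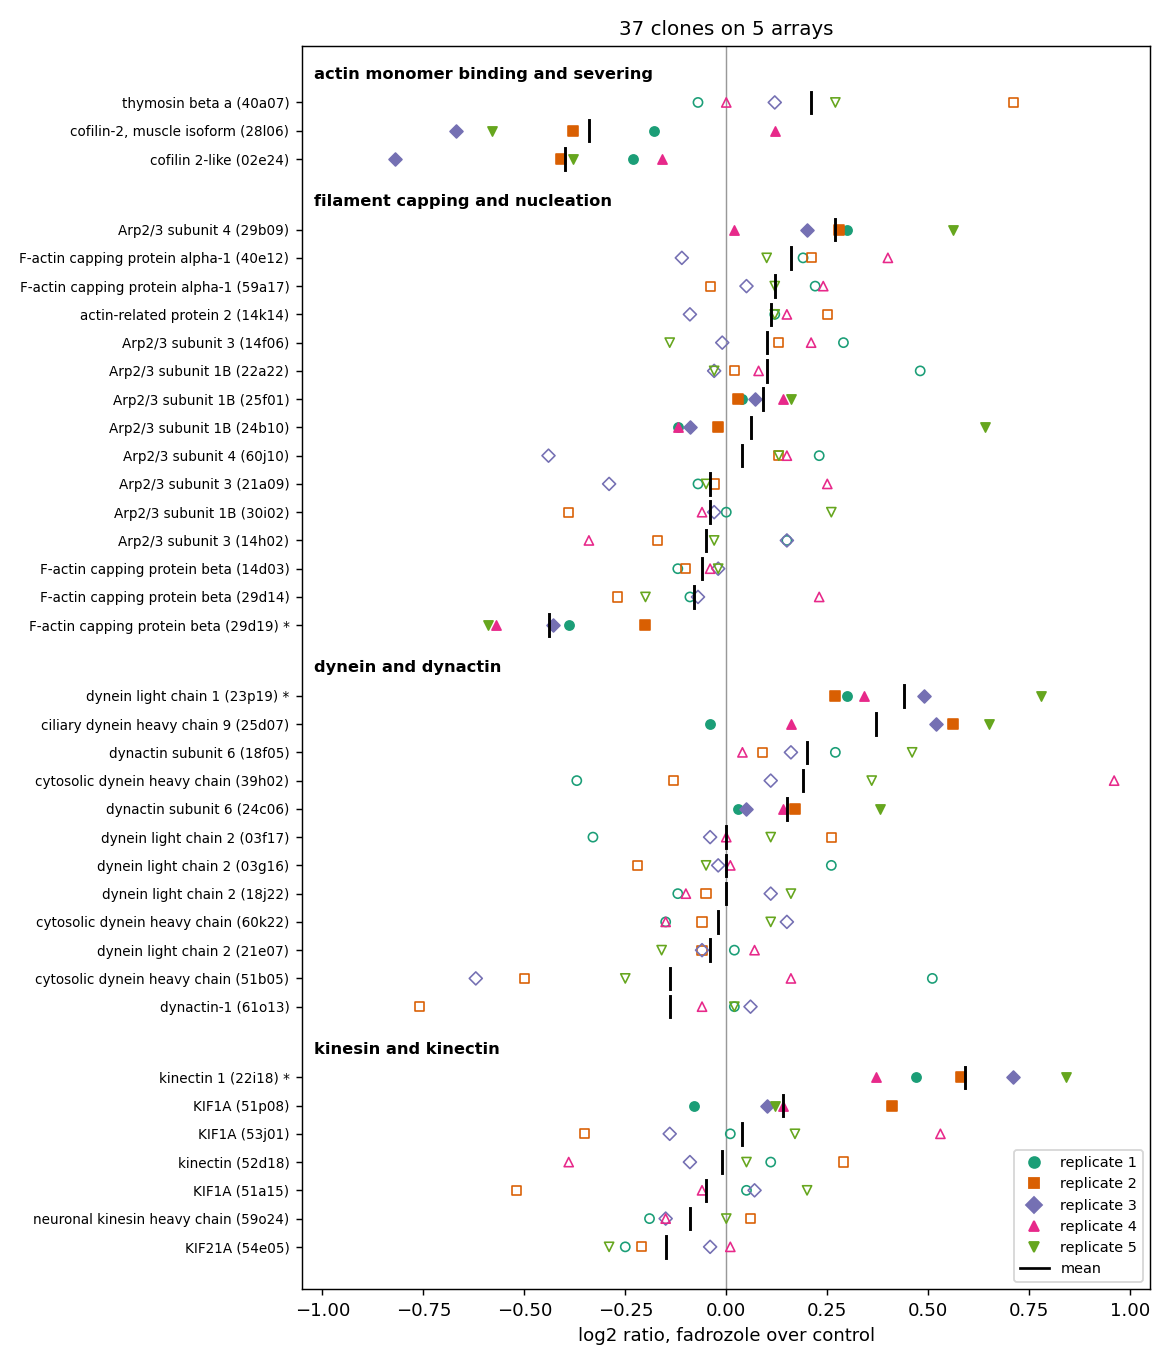
Log2 ratio of fadrozole over control (x axis) for each of the 37 clones (y axis, grouped by role and ordered by mean), with 1 symbol per replicate array and a black bar at the mean; filled symbols mark the 11 clones above the empty spots, and an asterisk marks the 3 clones with an adjusted limma p under 0.05. The 3 called clones lie at 0.59, 0.44 and -0.44, and most open symbols scatter around 0.

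Signal limited what could be read. Each array carried 776 empty spots. Their 95th percentile was 142 to 474 scanner units in the fadrozole channel and 96.9 to 220 in the control channel, and 11 of the 37 clones (29.7%) exceeded it in both channels on at least 3 arrays, as did 1885 (23.3%) of all tested clones. The 1885 clones had a median ratio of -0.01, with 46.5% above 0. The 11 member clones had a median ratio of 0.14, with 8 above 0, and spanned -0.44 to 0.59. On replicates 1 to 5 the median of these 11 was -0.04, 0.17, 0.07, 0.14 and 0.38. The other 26 lay between -0.15 and 0.21 with a median of -0.01, and 14 of them did not reach that level on any array. The median absolute ratio was 0.34 in the 11 brighter clones and 0.07 in the 26 dimmer ones, while in all tested clones it was 0.16 above and 0.08 below the same signal level. All 7 clones with a mean of at least 0.25 in either direction were among the 11. A ratio near 0 from a clone at the level of an empty spot therefore does not show an equal level of its transcript.

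**Figure D2:**
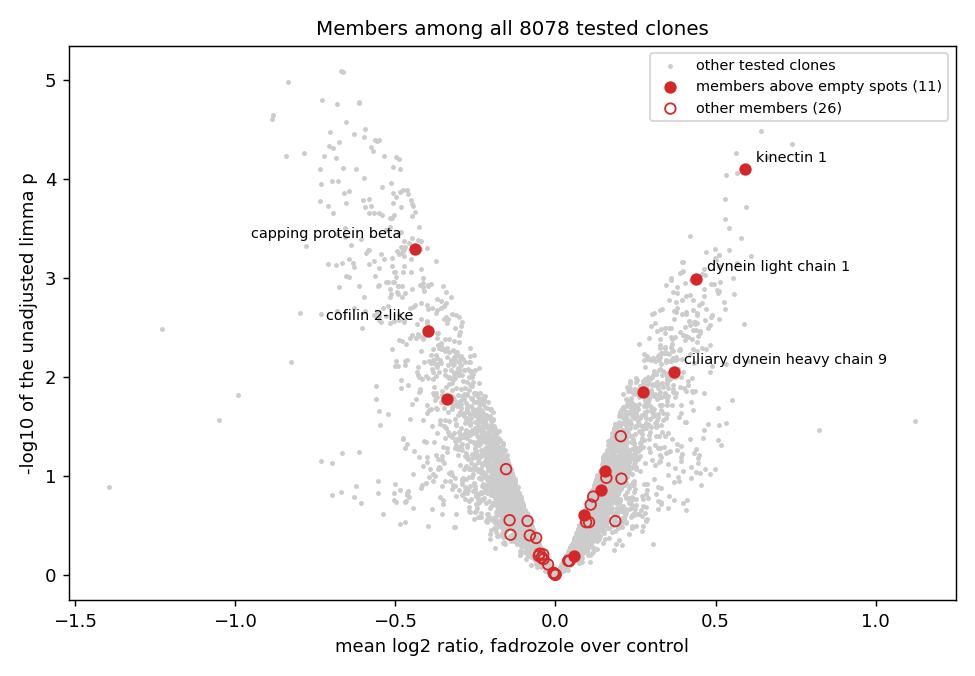
Mean log2 ratio of fadrozole over control (x axis) against the negative log10 of the unadjusted limma p (y axis) for the 8078 tested clones in grey, with filled red points for the 11 brighter and open red points for the 26 dimmer members. The filled points reach from -0.44 to 0.59, whereas the open ones stay between -0.15 and 0.21.

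Among the proteins that bind actin monomers and cut filaments, both cofilin clones had negative means and neither passed the test. The cofilin 2-like clone (02e24) had ratios of -0.23, -0.41, -0.82, -0.16 and -0.38. It was below 0 on all 5 arrays, at -0.40 ± 0.26 (limma adjusted p = 0.0892). It came from source plate 02, whose clones had a median of -0.35 ± 0.15, and relative to that median it stood at -0.05. The clone named cofilin-2, muscle isoform (28l06), had -0.18, -0.38, -0.67, 0.12 and -0.58. Replicate 4 alone was above 0, and the mean was -0.34 ± 0.31 (limma adjusted p = 0.205), or -0.37 relative to its own plate. As a check for muscle RNA, 57 clones named for parvalbumin, muscle creatine kinase, troponin or other muscle proteins had a median of 0.06 with 0 called, 13 of them above the empty spots, and summed intensities of 12710 to 35100 in the fadrozole channel and 4873 to 13460 in the control channel. Parvalbumin is also made by some neurons. The part of muscle RNA in the cofilin values was not tested.

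Thymosin beta a (40a07), a monomer-sequestering protein, had ratios of -0.07, 0.71, 0.12, 0.00 and 0.27. Replicate 2 was the highest and the arrays spread on both sides of 0, with a mean of 0.21 ± 0.31 (limma adjusted p = 0.478). The clone exceeded the empty spots in both channels on 1 array.

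Capping protein gave the only lower call. Clone 29d19, named for beta subunit isoforms 1 and 2, had mean spot intensities of 578, 1800, 1730, 690 and 542 in the fadrozole channel and 469, 1370, 888, 425 and 1290 in the control channel. Before normalization the fadrozole channel also had the higher level in empty spots, so these intensities are not read as a difference. Its normalized ratios were -0.39, -0.20, -0.43, -0.57 and -0.59. All 5 arrays were below 0 and both channels stood above the empty spots on each. The clone fell by 0.44 on the log2 scale (SD 0.16, n = 5; 95% interval of the mean -0.63 to -0.25), which is 1.35-fold lower in exposed fish (limma adjusted p = 0.0374). The duplicate spots had means of -0.51 and -0.36, and plate 29 had a median of -0.01.

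The other clones of the same dimer were dimmer and had 0 calls. The beta subunit clones 14d03 and 29d14 were at -0.06 ± 0.05 and -0.08 ± 0.19, each above the empty spots on 2 arrays. The alpha-1 subunit clones 40e12 and 59a17 were at 0.16 ± 0.18 and 0.12 ± 0.12, above the empty spots on 0 arrays. The difference between 29d19 and these clones was not tested. Clones 29d19 and 29d14 carry the same name, and no clone sequence was analysed here, so whether they represent the same transcript was not tested.

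The 10 clones of the Arp2/3 complex, which starts branched filaments, had 0 calls. The highest was subunit 4 (29b09), with ratios of 0.30, 0.28, 0.20, 0.02 and 0.56. It was above 0 and above the empty spots on all 5 arrays, at 0.27 ± 0.20 (limma unadjusted p = 0.0141, adjusted p = 0.191). The other subunit 4 clone, 60j10, averaged 0.04 ± 0.27, dim on all but 1 array, where only its first spot was bright. The 4 clones of subunit 1B ran from -0.04 to 0.10. Of these, 24b10 and 25f01 exceeded the empty spots in both channels on 4 arrays each, 22a22 on 2 and 30i02 on 1. The 3 clones of subunit 3 ran from -0.05 to 0.10 and were dimmer. Clone 14f06 exceeded the empty spots on 1 array, and 14h02 and 21a09 on 0. Actin-related protein 2, which with its partner seeds the new filament, was at 0.11 ± 0.12 and exceeded the empty spots on 1 array.

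**Figure D3:**
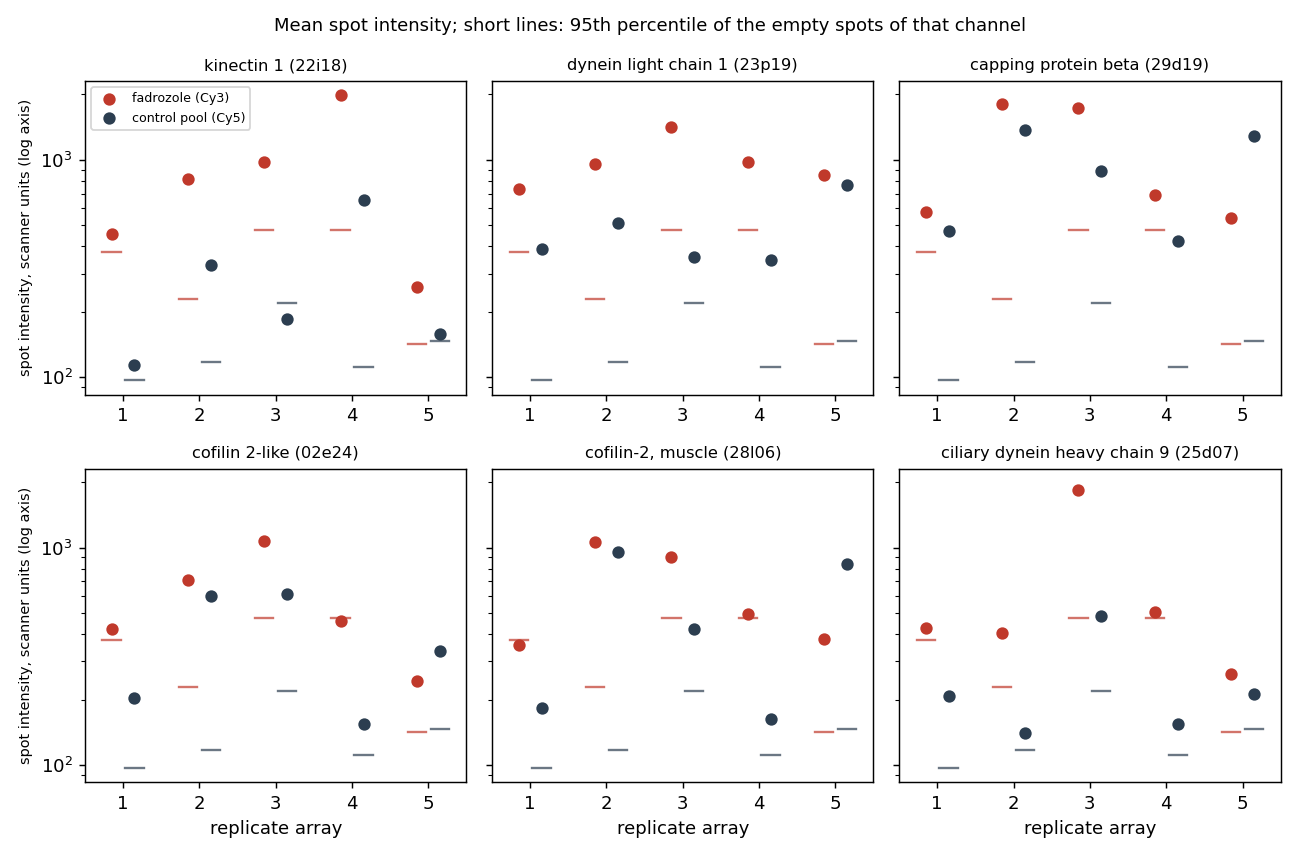
Mean spot intensity in scanner units (log y axis) on each replicate array (x axis) for 6 clones, with the fadrozole channel in red to the left of the control channel in dark blue; short lines mark the 95th percentile of the empty spots in that channel. Dynein light chain 1 and capping protein beta stand above both lines on 5 arrays, and kinectin 1 does so on 4.

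On the dynein side, 1 of 9 dynein clones was called. Dynein light chain 1 (23p19), a small subunit of the motor, had mean intensities of 737, 953, 1410, 979 and 847 in the fadrozole channel and 391, 513, 359, 347 and 767 in the control channel. As for capping protein, these intensities are not read as a difference. The normalized ratios of 23p19 were 0.30, 0.27, 0.49, 0.34 and 0.78. All 5 arrays were above 0 with replicate 5 the highest, and the clone rose by 0.44 ± 0.21 (95% interval 0.23 to 0.65), which is 1.36-fold higher in exposed fish. The adjusted limma p of 0.04996 lay directly at the threshold. Its duplicate spots had means of 0.43 and 0.45 and differed by 0.04 on average, the smallest gap among the called clones.

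The related dynein light chain 2 was represented by 4 clones between -0.04 and 0.00, whose joint mean was -0.01 ± 0.02. None of the 4 exceeded the empty spots in both channels on any array. The fadrozole channel of 18j22 did not meet the testing criterion of 2 background SDs above the local background on any array. That channel alone exceeded the empty spots on 1 array. The ratios of these 4 clones thus place no limit on a change of light chain 2.

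Among the heavy chains, which carry the motor domain, the 3 cytosolic clones had means of 0.19 ± 0.51 (39h02), -0.14 ± 0.47 (51b05) and -0.02 ± 0.14 (60k22). In that order, both channels exceeded the empty spots on 2, 0 and 0 arrays. Clone 39h02 has the largest SD in the whole set, and its arrays ran from -0.37 to 0.96. The highest value, on replicate 4, averaged spots at 1.8 and 0.12. Ciliary dynein heavy chain 9 (25d07), a motor of beating cilia that is named here after its values were seen, had ratios of -0.04, 0.56, 0.52, 0.16 and 0.65. Replicate 1 was just below 0 and the other 4 above, at 0.37 ± 0.30 (limma unadjusted p = 0.00876, adjusted p = 0.148), with both channels above the empty spots on 5 arrays.

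Dynactin subunit 6, part of the complex that activates dynein, was also named after its values were seen. Its clones 18f05 and 24c06 were at 0.20 ± 0.17 and 0.15 ± 0.14 and were above 0 on all 5 arrays each, with limma adjusted p values of 0.313 and 0.444. Averaged, the 2 clones ran from 0.09 to 0.42 over the arrays. Dynactin-1, the large subunit that binds dynein and microtubules, had ratios of 0.02, -0.76, 0.06, -0.06 and 0.02. Its mean of -0.14 ± 0.35 rests on replicate 2, and the clone exceeded the empty spots on 1 array.

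Kinectin 1 (22i18) had the highest ratio of the set and stood 9th from the top of all 8078 tested clones. Its mean intensities were 456, 814, 975, 1980 and 261 in the fadrozole channel and 114, 328, 185, 651 and 158 in the control channel, and both channels exceeded the empty spots on 4 arrays. These intensities, too, are from before normalization and are not read as a difference. The normalized ratios were 0.47, 0.58, 0.71, 0.37 and 0.84. No array was near 0, and the clone rose by 0.59 ± 0.19 (95% interval 0.39 to 0.79), which is 1.51-fold higher in exposed fish (limma adjusted p = 0.0162).

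The 2 spots of kinectin 1 did not carry this equally. The first spot had ratios of 0.94, 0.67, 1.09, 0.77 and 0.95, the second -0.01, 0.49, 0.32, -0.02 and 0.73. The first was higher on all 5 arrays, with means of 0.88 ± 0.17 for the first spot and 0.30 ± 0.33 for the second. Intensities of the first spot ran from 354 to 3630 in the fadrozole channel and from 144 to 1210 in the control channel, and those of the second from 168 to 676 in the fadrozole channel and from 78.2 to 165 in the control channel. Both channels exceeded the empty spots on 4 arrays at the first spot and on 1 array at the second. The mean gap between the spots was 0.58, against a median of 0.24 in the 11 brighter clones and 0.26 in all 1885 tested clones above that signal. The part of the dimmer spot in the mean was not tested.

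**Figure D4:**
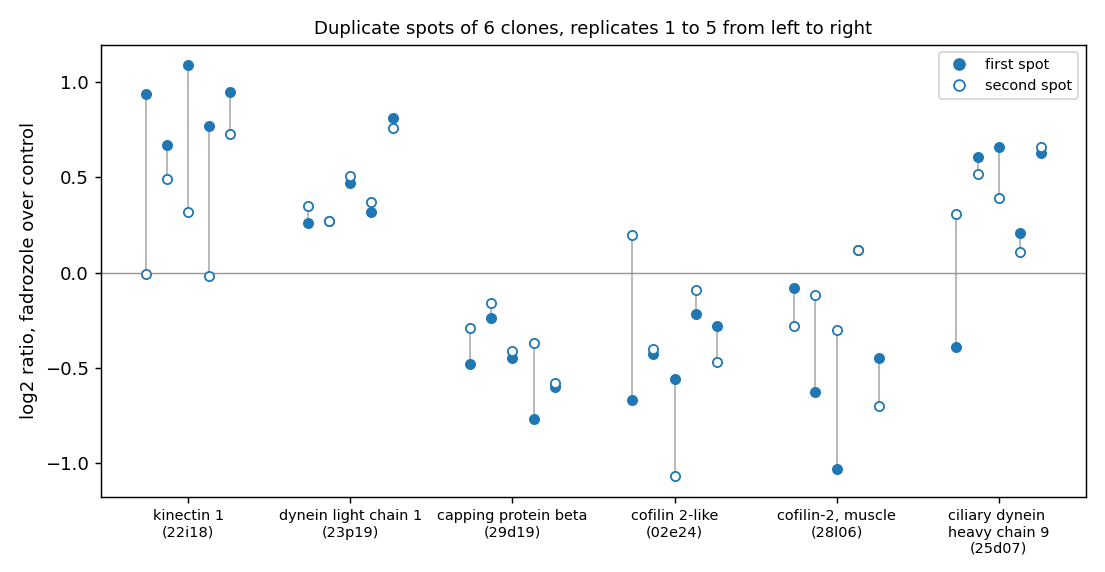
Log2 ratio of fadrozole over control (y axis) of the first (filled) and second (open) spot of 6 clones, joined by a line for each replicate array, replicates 1 to 5 from left to right. Kinectin 1 has first spots from 0.67 to 1.09 and second spots from -0.02 to 0.73, and the paired spots of dynein light chain 1 nearly coincide.

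A second kinectin clone (52d18), named as the kinesin receptor, averaged -0.01 ± 0.25 and did not exceed the empty spots on any array. The motors themselves had 0 calls. KIF1A, which carries synaptic vesicle precursors along axons, had 3 clones at -0.05 ± 0.28, 0.14 ± 0.18 and 0.04 ± 0.33, of which the second (51p08) exceeded the empty spots on 3 arrays. KIF21A had ratios of -0.25, -0.21, -0.04, 0.01 and -0.29, the lowest mean of this class at -0.15 ± 0.13 (limma adjusted p = 0.436). It exceeded the empty spots in both channels on 0 arrays. The neuronal kinesin heavy chain, a motor of fast axonal transport, was at -0.09 ± 0.11, above the empty spots in both channels on 2 arrays.

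Among partners of these proteins 1 of 77 clones was called, lower, against the 0.421% higher and 1.61% lower of all tested clones. Of the 77, 12 exceeded the empty spots in both channels on at least 3 arrays. Their medians near 0 therefore do not show equal levels of the partner transcripts. Of 39 clones on a list of actin network partners, such as tropomyosin and ezrin, 0 were called by limma and the median was 0.04, with 4 higher and 1 lower at an unadjusted p under 0.05. Dropping 5 clones whose names matched a word by accident left 34 with a median of 0.06. Of 38 microtubule partners, 0 were called higher and 1 lower, with a median of -0.04. The called clone (02e17), of the stathmin family of tubulin-binding proteins, was at -0.46 ± 0.17 (adjusted p = 0.0364), and relative to the median of plate 02 it stood at -0.11.

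Most of the listed filament subunit clones lay lower. Of the 48 actin and tubulin clones matched by the words, 43 were below 0, with a median of -0.16. Of all 8078 tested clones, 4122 were below 0. Limma called 0 of the 48 higher and 5 lower. All 5 called clones, of beta actin 1 and tubulin beta 2, came from plate 02. The 36 clones off plates 02 and 04 had a median of -0.13. The words did not match every filament subunit clone. They missed the 10 tested clones of plate 01, named only as actin, which had a median of 0.11. Of these 10, limma called 1 higher and 0 lower. A clone of the tubulin family on plate 02, also missed, was called lower. The difference between the actin and tubulin clones and the 37 was not tested.

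The 3 calls depended on the processing of the whole table. Limma made 0 calls among the 37 clones when each source plate was centred on its median (lowest adjusted p of the set 0.0991, with 4 higher and 2 lower at an unadjusted p under 0.05). It also made 0 without plates 02 and 04 (0.0724, with 5 higher and 2 lower). These steps left the ratios almost in place, at 0.56 and 0.59 for kinectin 1, 0.38 and 0.44 for dynein light chain 1 and -0.43 and -0.44 for capping protein beta. Nor did any of the 3 pass with no background subtraction, plain subtraction or the authors' values, or without replicates 1, 2 or 3. Kinectin 1 passed in 13 of 21 alternatives, with ratios of 0.51 to 0.68 and adjusted p values of 0.00456 to 0.118. Capping protein beta passed in 8, at -0.50 to -0.36 (0.00375 to 0.183), and dynein light chain 1 in 5, at 0.33 to 0.48 (0.00426 to 0.193). The adjusted p values of 0.00375 and 0.00426 came from keeping duplicate spots apart. With a fitted correlation of 0.0901, that fit counts the 2 spots of an array as nearly independent. All 3 counts include 1 filter chosen after seeing the data, on the empty spots. The range ends at 0.51, 0.33 and -0.36 come from the authors' values, whose log base and scaling are unknown. Each of the 3 clones had the same direction in all 21 alternatives.

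**Figure D5:**
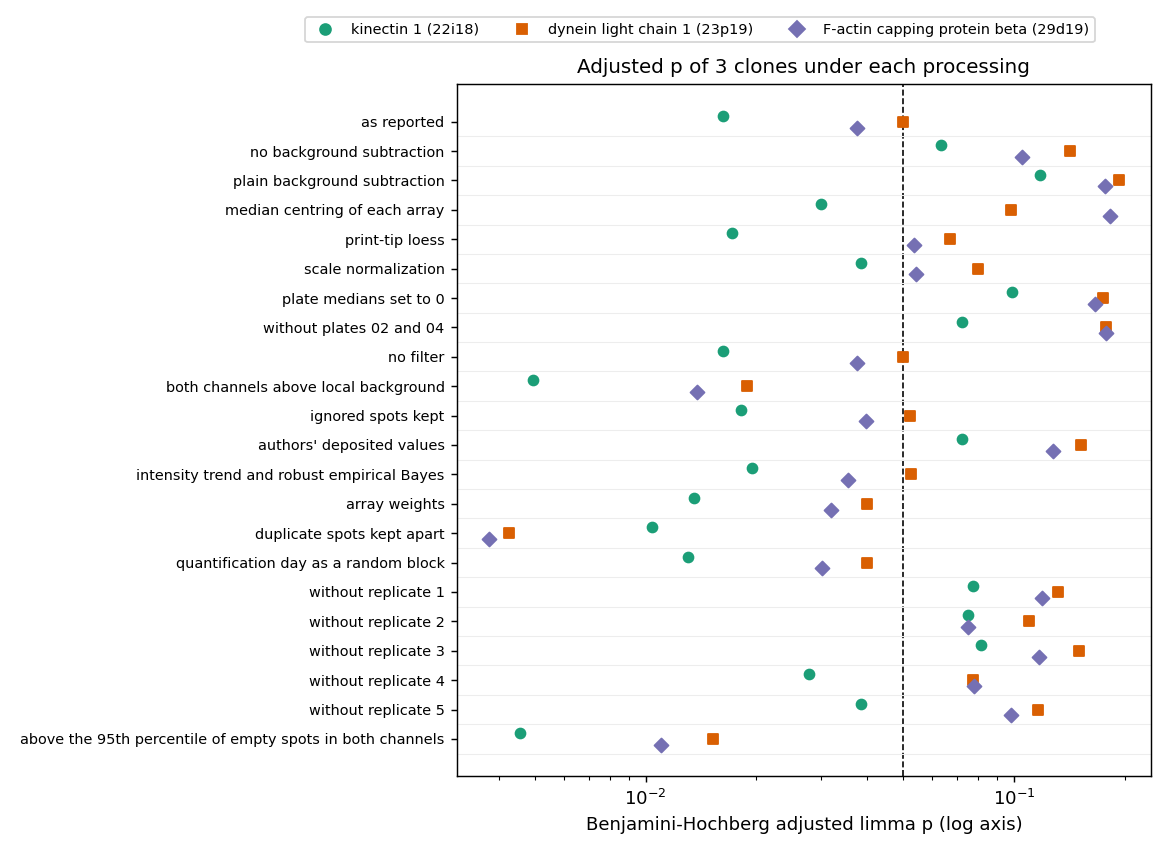
Benjamini-Hochberg adjusted limma p (log x axis) of the 3 called clones as reported and under 21 other ways of processing (y axis), with a dashed line at 0.05. Dynein light chain 1 lies on the line as reported, and all 3 clones lie right of it with plate medians set to 0 and without replicates 1, 2 or 3.

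Restricting the fit to the 1885 clones above the empty spots, an alternative chosen after seeing the data, tested 11 of the 37. There limma called 3 higher and 2 lower, while all 1885 gave 165 higher and 225 lower calls. Besides the 3 clones above, which had adjusted p values of 0.00456 for kinectin 1, 0.0152 for dynein light chain 1 and 0.011 for capping protein beta, these were ciliary dynein heavy chain 9 (0.0459) and the cofilin 2-like clone (0.0271). The cofilin 2-like clone is the one on plate 02.

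Across the whole series, the median intensity over clones was 122 to 386 in the fadrozole channel and 62.9 to 96.4 in the control channel. Plates 02 and 04 stood apart, with medians of -0.35 and -0.20, and held 127 of the 130 lower calls. Of the 37 clones 1, cofilin 2-like, lay on them. Both channels exceeded the empty spots on at least 3 arrays in 7 of 22 neuronal, 2 of 10 radial glial, 9 of 27 myelin and 4 of 13 globin marker clones. The growth hormone clone did so on 1 array. Of the glial markers, 1 of 3 aromatase clones (03k22) passed that level and the 3 GFAP clones did not on any array. The array number limits the precision of all values, and p-values measure the spread between these arrays.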

How the data were processed

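Per the file headers, the deposited scanner reports give 1 intensity and 1 local background per spot and channel in linear scanner units, not background subtracted. The second channel and the background SDs are in the same units. A unit check made for this report, not the deposit, lists them under another unit name (other) because of the deposited layout. A table of 1 processed value per spot, on what looks like a log2 scale, was deposited by the authors, with its making not stated in the sources used here. These values correlated at -0.996 to -1.00 with log2 ratios made from the scanner values, with slopes of -0.730 to -0.810, so they run as control over fadrozole and were used, sign turned, as an alternative. Their log base and scaling stay unknown.

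Intensities were corrected by normexp (offset 50) and normalized by loess (span 0.3) within each array in limma 3.58.1 (R 4.3.3, statmod 1.5.0), with control, empty and ignored spots at weight 0, and duplicate spots averaged. Testing required that either channel lie 2 background SDs above the local background in 0.5 or more of a clone's spots, on 3 arrays or more (8078 of 8099; all 37 members). The mean log2 ratio was tested against 0, two-sided, over 5 arrays (4 residual and 5.24 prior degrees of freedom), with Benjamini-Hochberg adjustment over 8078 clones. The steps were also run on simulated data, in which the fadrozole signal was built from the control signal. No dye bias or plate shift was put in, so that run does not show how the steps handle either.

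Members and lists were chosen with earlier results of these data known. By rule, named clones were those called, the highest and lowest of each role, genes with 3 or more clones, and clones with an outlying array. Other clones are named outside this rule. Among them are cofilin-2, muscle isoform, the capping protein alpha-1 clones, actin-related protein 2, the second kinectin clone and the neuronal kinesin heavy chain. Word lists covered actin network partners, microtubule partners, actins and tubulins, and markers of neurons, radial glia, myelin, muscle, blood, pituitary and immune cells. As written, the marker medians were -0.08 (20 tested neuronal clones), -0.02 (10 glial), 0.00 (33 myelin), 0.05 (73 muscle), -0.13 (18 blood), -0.09 (2 pituitary) and 0.01 (25 immune). Some words matched clones of other cells by accident, such as brain creatine kinase in the muscle list, myoglobin in the blood list and a vacuolar ATP synthase in the myelin list. Dropping these, a choice made after seeing the data, left 57 muscle (median 0.06), 13 blood (-0.32), 27 myelin (0.01), 22 immune (0.01) and 1 pituitary clone (-0.33). Limma called 3 neuronal clones lower, all on plate 02, and 0 of the other marker clones. Alternatives changed background, normalization, plates, filters, values, weights, blocks and arrays. Genome positions were not used.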

Additional observations from a re-analysis of the deposited data

Results flagged for a closer look

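In 4 of the 37 clones 1 array stood far from the other 4 by Dixon's criterion, which marks about 1 in 20 groups of values by chance. Arp2/3 subunit 1B clone 22a22 was at 0.48 on replicate 1 and between -0.03 and 0.08 on the others. Another subunit 1B clone, 24b10, was at 0.64 on replicate 5 and between -0.12 and -0.02 elsewhere. Arp2/3 subunit 4 clone 60j10 was at -0.44 on replicate 3, where its mean intensities of 839 (fadrozole) and 490 (control) were its highest. The first spot there was at -0.92, with intensities of 1340 and 951. The second was at 0.04, with 337 and 30, under the 95th percentile of the empty spots (474 and 220). The value and the brightness thus rest on 1 spot. Dynactin-1 (61o13) was at -0.76 on replicate 2, the mean of spots at -0.26 and -1.26. On their outlying arrays the 2 spots lay at 0.44 and 0.51 for 22a22, and at 0.51 and 0.77 for 24b10. The 4 values came from 4 different arrays and none of these clones was called.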

How the results depend on the processing

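As reported, limma called 2 of the 37 clones higher and 1 lower, and 34 and 130 of all clones. It called 0 members and 0 clones in either direction with no background subtraction (smallest adjusted p 0.056, 1187 clones at an unadjusted p under 0.05), plain subtraction (0.105, 1042), plate medians set to 0 (0.0868, 910), plates 02 and 04 left out (0.0724, 741) and the authors' values (0.0723, 1124). With scale normalization it called 1 member higher and 0 lower, and 16 and 76 of all clones. Median centring gave 1 member higher and 0 lower, and 37 and 94 of all clones. Print-tip loess gave the same member counts, and 34 and 138 of all clones. With ignored spots kept, 1 member was called higher and 1 lower, and 29 and 124 of all clones. Those member counts also came with an intensity trend and robust estimation (42 and 140 of all clones) and with no filter (33 and 130). Keeping duplicate spots apart (fitted correlation 0.0901) gave 2 members lower, and 160 and 241 of all clones. Requiring both channels above local background gave 2 members lower, a member median of 0.11, and 133 and 214 of all clones. The filter on empty spots, chosen after seeing the data, gave 2 members lower, a member median of 0.14, and 165 and 225 of all clones. Both filters test fewer clones. For the other settings the cause was not tested. Leaving out 1 replicate gave 0 to 1 member higher and 0 lower, and 0 to 21 clones higher and 0 to 153 lower. Without replicate 1, 2 or 3 the members had 0 calls, and without replicate 4 or 5 the 1 call was kinectin 1. The member median otherwise ran from -0.01 to 0.06. Cofilin 2-like passed in 3 of 20 alternatives, with ratios of -0.61 to -0.05. No named clone reversed a called direction. No paired analysis was possible because the labels give 1 group of arrays and no numbers shared between groups.

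Depth of signal limits these results: 26 of 37 clones did not exceed the empty spots in both channels on 3 arrays. The fadrozole channel of 16 met the criterion of 2 background SDs above local background on fewer than 3 arrays. Near-identical gene copies, which cDNA spots can bind together, were not told apart. Replicate 1 was quantified on another day than replicates 2 to 5. With that day as a random block, 2 members were called higher and 1 lower, and 51 and 160 of all clones, against 34 and 130 as reported. The fitted correlation within a day was -0.0198. Because 1 of the days holds 1 array, an effect of the day cannot be told apart from that array. These counts therefore do not show that the calls hold once the day is accounted for.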

Other observations

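Beta thymosin clones outside the word rule stayed near 0, at 0.01 ± 0.13 (03f19) and -0.06 ± 0.11 (03m17). Clone 03m17 exceeded the empty spots in both channels on 5 arrays. Of the 3 clones named for aromatase, the target of fadrozole, 03k22 was at 0.29 ± 0.24 (limma adjusted p = 0.203), with both channels above the empty spots on 5 arrays. The others, 03p04 and 03n04, were at -0.02 ± 0.18 (0.962) and -0.03 ± 0.13 (0.924) and did not exceed the empty spots on any array.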
